A study of Mus musculus with 12 samples.

Results

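Saa3, C3, C4b, Cfb, Serping1, Lcn2, Hp, Slpi and Fn1 are 9 of the 34820 genes measured by bulk RNA-seq in isolated mouse islets of Langerhans, and their products belong to the complement system, the acute phase response and the matrix laid down during inflammation. They were selected by name for higher levels in islets 1 week after the loss of Taf4. The comparison of 1 week with wild type, and those of later times with 1 week, are therefore given as a description with no test. The comparison of 5 weeks with 3 weeks shares no library with that choice, while the comparisons of 3 and 5 weeks with wild type share the wild-type libraries with it. Because 1 model was fitted over all 4 groups, the spread behind its standard errors and p-values also drew on the 1-week libraries. A fit of the compared groups alone is among the alternatives. All groups were adult C57/Bl6 mice that carried the tamoxifen-inducible Ins1::Cre-ERT2 transgene and received tamoxifen. Wild-type animals had intact Taf4 (Taf4+/+), and mutant animals had floxed Taf4 alleles (Taf4 lox/lox) and were sampled at 1, 3 or 5 weeks. The Ins1 promoter drives Cre in beta cells, and the state of Taf4 in the other islet cells was not tested here. Each library pooled islets of 2 mice, with 3 libraries each of wild type, 1 week and 3 weeks and 2 libraries (replicates 2 and 3) of 5 weeks, and the wild-type labels give no time.

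Acute phase proteins are secreted into blood, mainly by the liver, when interleukin-6, interleukin-1 and related cytokines signal through STAT3, C/EBP factors and NF-kB, and many are also made locally by epithelium, stroma and macrophages. Complement is a cascade of plasma proteins in which C3 is cleaved by convertases built from C4b and C2 or from factor B (Cfb), and C1 inhibitor (Serping1) blocks the proteases that start the classical and lectin routes. In islets, which are clusters of endocrine cells with vessels and resident macrophages, such genes are known to respond to inflammatory cytokines.

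Total counts ranged from 13865518 to 21581153 per library. Markers of acinar cells, the enzyme-secreting cells around islets, took 25.6 to 46.3% of the counts in wild type, 6.23 to 20.8% at 1 week, 2.86 to 4.19% at 3 weeks and 0.0321 to 0.215% at 5 weeks. Xist was 8.68 to 36.3 CPM (the usual unit of counts relative to the scaled library size) in wild type and at least 1592 CPM in every mutant library. The Y-linked Ddx3y, Eif2s3y, Kdm5d and Uty were at least 32.1 CPM in every wild-type library and at most 0.128 CPM in every mutant library. Read as sex, which the labels do not give, the wild-type pools were male and the mutant pools female. Genotype and sex therefore cannot be told apart in any comparison with wild type. Taf4 (listed as Taf4a), counted over the whole gene in all islet cells, was 23.0 to 29.8 CPM in wild type and 21.7 to 37.0 CPM in the mutants, so that its count does not check the labels. Replicate 2 of 1 week was the highest of the 11 libraries for 6 of the 9 genes, which the choice of genes by the 1-week libraries favours, and values without it are given beside the 1-week values.

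RefSeq promoter entries (build GRCm38.p6) matched 4 of the 9 genes, all on the minus strand, and the 250 bases before each start are shown because the 4 genes differ in their response: Saa3 (chr7:46715677-46715926), C3 (chr17:57228137-57228386), Lcn2 (chr2:32387740-32387989) and Slpi (chr2:164356508-164356757). Capitals mark matches, on either strand, to TTGCNNAA, a C/EBP-type word, or to the interferon-stimulated response element core (ISRE), and no overlap between matches occurred.
Saa3: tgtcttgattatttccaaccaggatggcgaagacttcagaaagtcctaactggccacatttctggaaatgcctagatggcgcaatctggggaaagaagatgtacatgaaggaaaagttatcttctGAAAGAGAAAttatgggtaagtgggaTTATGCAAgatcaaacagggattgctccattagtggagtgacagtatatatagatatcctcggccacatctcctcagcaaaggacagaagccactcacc
C3: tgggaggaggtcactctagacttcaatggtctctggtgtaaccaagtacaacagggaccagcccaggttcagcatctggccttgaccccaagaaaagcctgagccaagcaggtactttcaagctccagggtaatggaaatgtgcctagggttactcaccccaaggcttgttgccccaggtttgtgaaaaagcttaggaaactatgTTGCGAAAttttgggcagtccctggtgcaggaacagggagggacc
Lcn2: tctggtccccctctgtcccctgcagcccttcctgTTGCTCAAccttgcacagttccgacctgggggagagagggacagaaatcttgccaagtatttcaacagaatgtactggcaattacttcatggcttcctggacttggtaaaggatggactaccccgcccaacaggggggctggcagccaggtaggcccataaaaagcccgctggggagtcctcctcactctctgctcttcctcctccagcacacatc
Slpi: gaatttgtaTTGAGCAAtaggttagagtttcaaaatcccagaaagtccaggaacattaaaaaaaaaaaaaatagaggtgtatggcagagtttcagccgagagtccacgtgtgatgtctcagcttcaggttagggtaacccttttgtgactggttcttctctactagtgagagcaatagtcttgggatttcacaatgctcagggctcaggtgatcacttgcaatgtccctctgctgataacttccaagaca
Each of the 4 sequences held 1 match to TTGCNNAA, as did 10.8% of the 32851 promoters of the table when 50 bases after the start were included. It began 99 bases before the start in Saa3 (TTATGCAA), 45 in C3 (TTGCGAAA), 216 in Lcn2 (TTGCTCAA) and 241 in Slpi (TTGAGCAA). Saa3 also matched the ISRE core (GAAAGAGAAA) 125 bases before its start, as did 3.44% of promoters. No match to the NF-kB consensus, present in 8.46% of promoters, or to the STAT word TTCNNNGAA, present in 8.3%, was found in these windows. A match describes letters only.

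**Figure D1:**
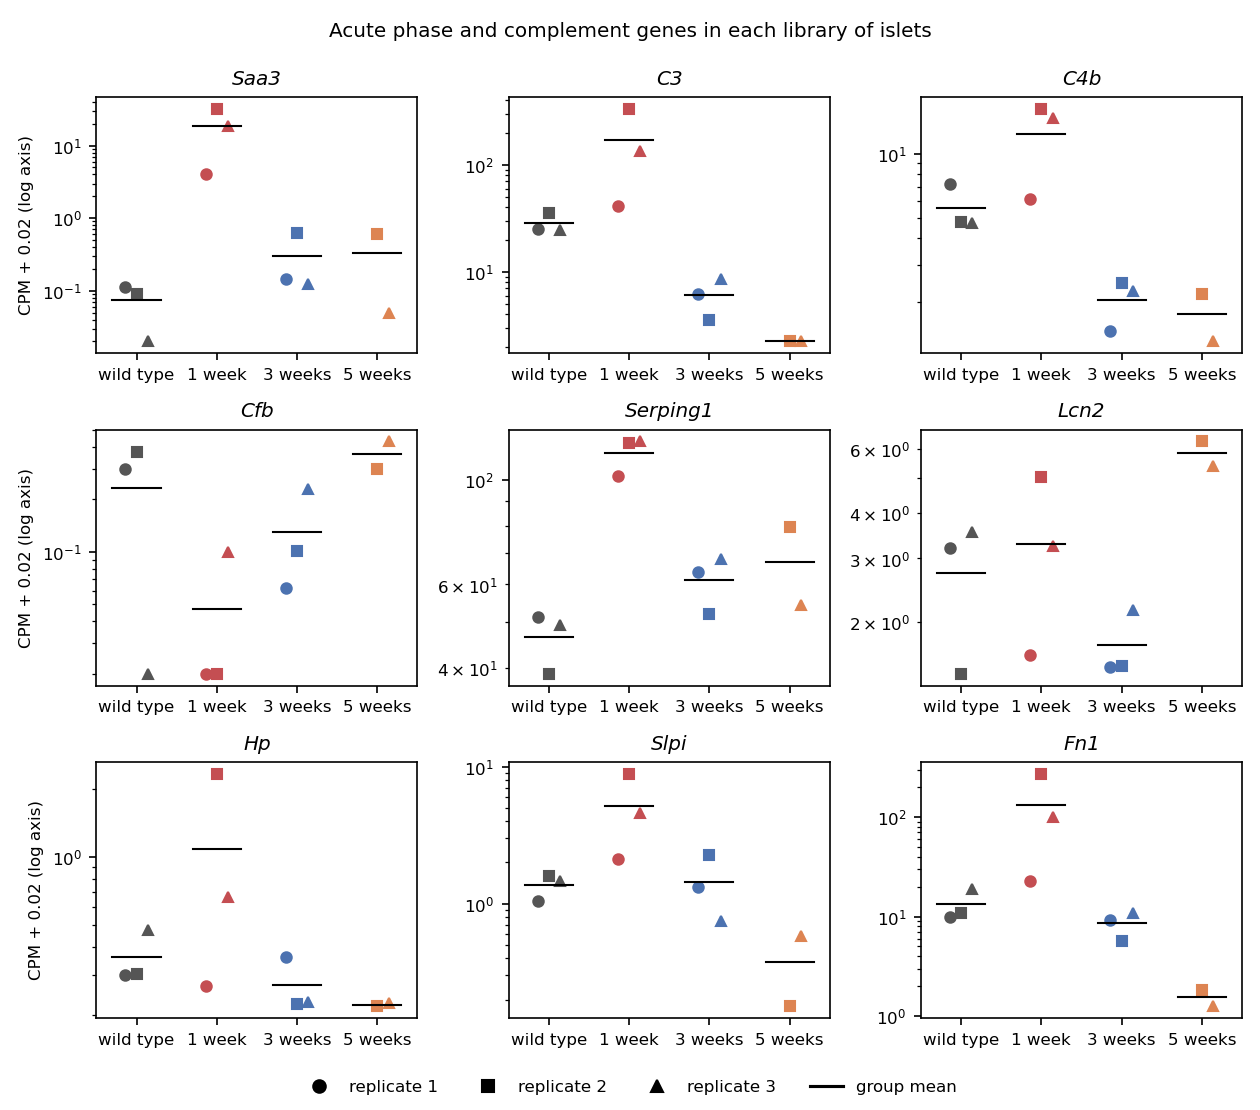
CPM of each of the 9 genes (y axis, log scale, with 0.02 added so that 0 can be drawn) in every library of wild-type islets and of Taf4 mutant islets at 1, 3 and 5 weeks (x axis). Symbols give the replicate and the horizontal line the group mean. Saa3, C3, Serping1, Slpi and Fn1 lie above every wild-type library at 1 week, Lcn2 is highest at 5 weeks, and Cfb is at or near 0 at 1 week.

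Of the 3 complement components, C3 and C4b fell below wild type at 3 and 5 weeks and Cfb did not. C3 (chromosome 17, 57343397 to 57367559 in NCBIM37), the central component of all complement routes, was 25.3, 35.7 and 24.5 CPM in the wild-type libraries, 41.6, 335 and 135 CPM at 1 week, 6.23, 3.49 and 8.46 CPM at 3 weeks, and 2.22 and 2.23 CPM at 5 weeks. The 4 groups did not overlap, with the order 1 week, wild type, 3 weeks, 5 weeks. At 1 week its log2 fold change from wild type was 2.58 ± 0.46 (standard error, SE), or 1.66 ± 0.35 without replicate 2 of 1 week. C3 fell by 2.25 ± 0.49 on the log2 scale from wild type to 3 weeks (adjusted p = 0.00383) and by 3.68 ± 0.62 to 5 weeks (adjusted p = 0.000236). From 3 to 5 weeks its log2 fold change was -1.43 ± 0.60 (adjusted p = 0.138), although the libraries of both times did not overlap. That last comparison passed the threshold with library totals alone (adjusted p = 0.0417) and in a fit of these groups only (adjusted p = 0.0157). It also passed with no filter on low counts (log2 fold change -1.40 ± 0.22, adjusted p = 2.34e-08).

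C4b (chromosome 17, 34865325 to 34880827), a component of the classical and lectin convertase, was 7.19, 4.76 and 4.70 CPM in wild type, 6.11, 16.2 and 14.7 CPM at 1 week, 1.44, 2.43 and 2.25 CPM at 3 weeks, and 2.18 and 1.29 CPM at 5 weeks. Replicate 1 of 1 week lay within the wild-type range, and every library of 3 and 5 weeks lay below it. The log2 fold change from wild type was 1.15 ± 0.34 at 1 week, or 0.94 ± 0.37 without replicate 2 of 1 week. C4b fell by 1.44 ± 0.36 on the log2 scale to 3 weeks (adjusted p = 0.0101) and by 1.69 ± 0.41 to 5 weeks (adjusted p = 0.00477), with -0.25 ± 0.41 between 3 and 5 weeks (adjusted p = 0.757). The call at 3 weeks was lost without wild-type replicate 1 (adjusted p = 0.0694) or 3-week replicate 1 (adjusted p = 0.0552), and the call at 5 weeks without 5-week replicate 3 (adjusted p = 0.0676). With library totals alone neither call held (adjusted p = 0.0930 and 0.156). C4b and its near-identical neighbour C4a can share reads, and C4a was 1.18 to 1.68 CPM in wild type, 0.0805 to 2.31 at 1 week, 0.847 to 1.95 at 3 weeks and 2.10 and 2.93 at 5 weeks, with no call in any tested comparison.

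Cfb (chromosome 17, 34993319 to 34999463), the protease component of the alternative route, did not show the rise for which the genes were chosen. Its counts were 3, 5 and 0 in wild type, 0, 0 and 1 in 1-week libraries, 1, 2 and 4 in 3-week libraries, and 7 and 14 in 5-week libraries. The pooled counts gave a level 9.87-fold lower at 1 week than in wild type, with an exact 95% counting interval of 1.32 to 438, and both 5-week libraries were above every library of 1 and 3 weeks. Cfb did not pass the filter on low counts. In the GENCODE M1 annotation 79.5% of its 2825 exon bases are shared with the read-through gene Gm20547, and union counting leaves out reads in bases shared by genes. Gm20547 has no row in the table analysed here and the counting used another annotation release, so whether reads of Cfb were left out was not tested.

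Serping1 (chromosome 2, 84605544 to 84615601), which encodes C1 inhibitor, was above wild type in every mutant library. It was 51.3, 38.8 and 49.2 CPM in wild type, 102, 120 and 121 CPM at 1 week, 63.9, 51.9 and 67.8 CPM at 3 weeks, and 79.3 and 54.4 CPM at 5 weeks. The lowest mutant library (51.9 CPM) and the highest wild-type library (51.3 CPM) were close. Its mean was 2.46-fold that of wild type at 1 week, and its log2 fold change of 1.30 ± 0.17 was 1.29 ± 0.19 without replicate 2 of 1 week. At 3 weeks the log2 fold change from wild type was 0.40 ± 0.17 (adjusted p = 0.110), and Serping1 rose by 0.53 ± 0.18 at 5 weeks (adjusted p = 0.0360), under the fold threshold of 1 used for a call. Between 3 and 5 weeks it was 0.13 ± 0.18 (adjusted p = 0.718), or -0.17 without 5-week replicate 2. Scaled by library totals alone it was called higher at 3 weeks (log2 fold change 1.09) and 5 weeks (1.54), and scaled on 12 genes of all endocrine cells at 5 weeks (1.04).

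The 3 acute phase proteins of the set differed from each other. Saa3 (chromosome 7, 53967368 to 53971046), a serum amyloid A made outside the liver by macrophages and other cells, had 1, 1 and 0 counts in wild type, 66, 501 and 234 in 1-week libraries, 3, 15 and 2 in 3-week libraries, and 15 and 1 in 5-week libraries. The 1-week libraries held 4.07, 32.2 and 18.8 CPM, and no other library was above 0.608 CPM. Pooled counts were 325-fold those of wild type at 1 week (exact 95% counting interval 89.6 to 2685), 5.31-fold at 3 weeks (1.29 to 46.9) and 4.83-fold at 5 weeks (1.13 to 43.3). The fitted log2 fold changes from wild type of 2.26 ± 1.60 at 3 weeks (adjusted p = 0.371) and 2.22 ± 1.66 at 5 weeks (adjusted p = 0.336) did not pass, and from 3 to 5 weeks it was -0.04 ± 1.004 (adjusted p = 0.985). With no filter on low counts Saa3 was called higher at 3 weeks (log2 fold change 2.35, adjusted p = 0.0364) and at 5 weeks (2.34, adjusted p = 0.0369), and without 5-week replicate 2 the sign at 5 weeks turned to -0.78. The liver-type Saa1 had at most 0.176 CPM and Saa2 at most 0.161 CPM in any library.

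Lcn2 (chromosome 2, 32240153 to 32243317), a lipocalin that binds bacterial siderophores, did not show the rise at 1 week in all libraries and was highest at 5 weeks. It was 3.18, 1.42 and 3.53 CPM in wild type, 1.61, 5.01 and 3.22 CPM at 1 week, 1.48, 1.50 and 2.14 CPM at 3 weeks, and 6.29 and 5.36 CPM at 5 weeks. The 1-week libraries overlapped wild type, with a log2 fold change of 0.29 ± 0.41 that became -0.14 ± 0.44 without replicate 2 of 1 week. Both 5-week libraries were above all others. Lcn2 rose by 1.77 ± 0.43 on the log2 scale from 3 to 5 weeks (adjusted p = 0.0101), with an adjusted p of 0.0632 without 5-week replicate 2. Against wild type it was -0.65 ± 0.42 at 3 weeks (adjusted p = 0.315) and 1.12 ± 0.43 at 5 weeks (adjusted p = 0.0586). The value at 5 weeks passed under 6 alternatives, among them library totals alone (2.19, adjusted p = 1.23e-05), the endocrine scaling (1.64, adjusted p = 0.00255) and the DESeq2 Wald test (1.12, adjusted p = 0.0435).

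Hp (chromosome 8, 112099030 to 112103072), which encodes the haemoglobin-binding haptoglobin, rested on few counts: 3, 4 and 5 in wild type, 4, 36 and 8 in 1-week libraries, 8, 5 and 4 in 3-week libraries, and 5 and 7 in 5-week libraries. Only replicate 2 of 1 week was above 1 CPM, at 2.31 CPM. Hp did not pass the filter, and in the fit without one its log2 fold change from 3 to 5 weeks was -0.28 ± 0.93 (adjusted p = 0.935).

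The protease inhibitor Slpi and the matrix protein Fn1 ended below wild type at 5 weeks. Slpi (chromosome 2, 164179806 to 164214831), an inhibitor of neutrophil elastase, was 1.03, 1.56 and 1.45 CPM in wild type, 2.10, 8.86 and 4.59 CPM at 1 week, 1.31, 2.23 and 0.731 CPM at 3 weeks, and 0.158 and 0.557 CPM at 5 weeks. All 1-week libraries were above wild type and both 5-week libraries were below every other library. Its log2 fold change at 1 week was 1.93 ± 0.54, or 1.32 ± 0.57 without replicate 2 of 1 week, and at 3 weeks it was 0.09 ± 0.55 (adjusted p = 0.939). Slpi fell by 1.85 ± 0.68 from wild type to 5 weeks (adjusted p = 0.0481) and was -1.94 ± 0.66 from 3 to 5 weeks (adjusted p = 0.0634). The call against wild type was lost without any single wild-type replicate (adjusted p = 0.0645, 0.114 and 0.0878 without replicates 1, 2 and 3), without 5-week replicate 2 (0.281) and with 2 other scalings.

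Fn1 (chromosome 1, 71632094 to 71699774) encodes fibronectin, which is both a plasma protein and a matrix protein of stroma and vessels. It was 9.90, 10.9 and 18.8 CPM in wild type, 22.8, 272 and 100 CPM at 1 week, 9.19, 5.68 and 10.9 CPM at 3 weeks, and 1.82 and 1.23 CPM at 5 weeks. Every 1-week library was above wild type, the 3-week libraries overlapped it, and both 5-week libraries were below all others. The log2 fold change at 1 week was 3.32 ± 0.55, or 2.25 ± 0.42 without replicate 2 of 1 week, and -0.62 ± 0.54 at 3 weeks (adjusted p = 0.478). Fn1 fell by 3.13 ± 0.72 from wild type to 5 weeks (adjusted p = 0.00342), and it fell by 2.503 ± 0.713 from 3 to 5 weeks (adjusted p = 0.0279). The first call was lost without 5-week replicate 3 (adjusted p = 0.0520). The second was lost without 3-week replicate 1 (0.0675), 3-week replicate 3 (0.0820), 5-week replicate 2 (0.116) or 5-week replicate 3 (0.172).

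Counted over the set, 7 of the 9 genes passed the filter on low counts. From 3 to 5 weeks, 1 of these was called higher (Lcn2) and 1 lower (Fn1) at an adjusted p below 0.05 and a log2 fold change beyond 1 (edgeR quasi-likelihood test), against 2.2% of all genes tested called higher and 4.01% called lower. Over the 7, the median log2 fold change was -0.25 from 3 to 5 weeks, -0.62 at 3 weeks and -1.69 at 5 weeks against wild type, beside -0.01, -0.05 and -0.03 over all genes tested, given as a description. Libraries of the 2 times did not overlap for 5 of the 9 genes, with Cfb and Lcn2 higher (20.2% of all genes tested) and C3, Slpi and Fn1 lower (20.7%). Such counts of overlap include Cfb and Hp, which did not pass the filter, while the shares cover only genes that did. Against wild type, 0 were called higher at 3 weeks (1.6% of all genes) and 2 lower (5.05%), and at 5 weeks 0 were called higher (4.26%) and 4 lower (11.2%). At 3 weeks Saa3 and Serping1 lay above every wild-type library (20.7% of all genes) and C3 and C4b below (19.4%). At 5 weeks Serping1 and Lcn2 lay above (26.3%) and C3, C4b, Hp, Slpi and Fn1 below (28%). At 1 week, the contrast that chose the set, 5 of the 9 lay above every wild-type library (15.1% of all genes) and 0 below (15.7%). Since the wild-type libraries are not timed, mutant time and age of the mice cannot be told apart. Nor can genotype and the sex read from Xist and the Y-linked genes, in any comparison with wild type. In bulk islets fewer cells of a type and less RNA per cell cannot be told apart.

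**Figure D2:**
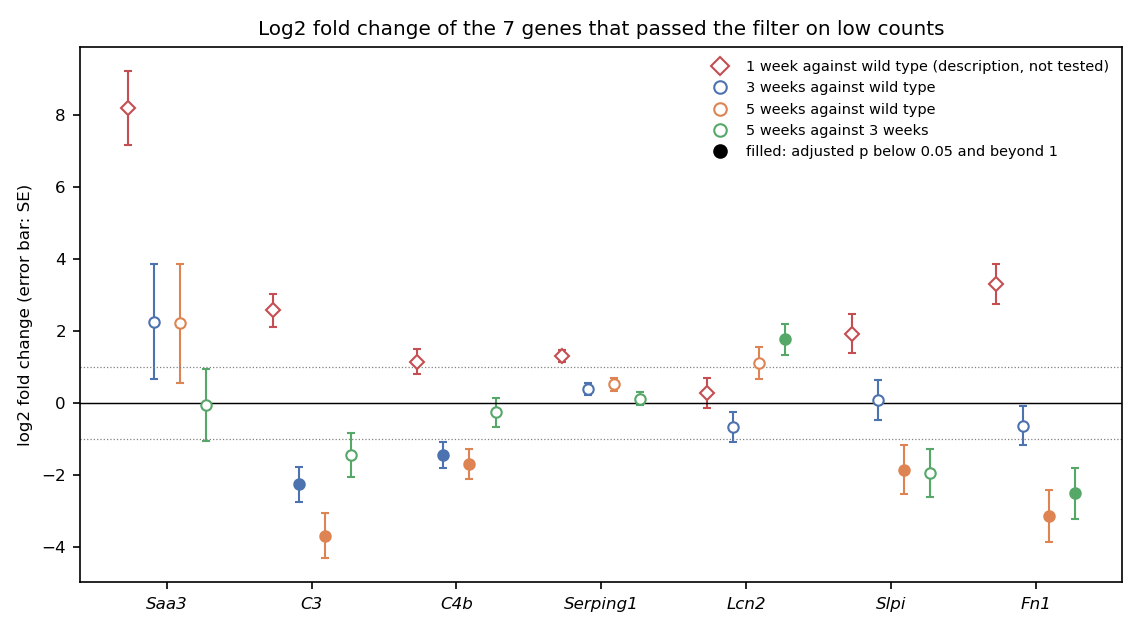
Log2 fold change (y axis, bars are SE) of the 7 genes that passed the filter on low counts (x axis), for 1 week against wild type (diamonds, description only) and for the 3 comparisons that were tested (circles, filled where called). C3 and C4b are called lower than wild type at both 3 and 5 weeks, Slpi and Fn1 at 5 weeks, and Lcn2 rises while Fn1 falls from 3 to 5 weeks.

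From 1 week to later times the levels of most of the set were lower, which the choice of genes by the 1-week libraries favours. The log2 fold change from 1 to 3 weeks was -5.94 ± 0.75 for Saa3, -4.83 ± 0.52 for C3 and -3.94 ± 0.56 for Fn1. It was smaller for C4b (-2.59 ± 0.35), Slpi (-1.84 ± 0.52), Lcn2 (-0.94 ± 0.41) and Serping1 (-0.90 ± 0.16). From 1 to 5 weeks it ranged from -6.45 ± 0.78 for Fn1 to 0.83 ± 0.42 for Lcn2.

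Levels between genes were compared on the authors' signal, which divides normalised counts by the median transcript length. In wild type the order of mean signal per kilobase was C3 (808 ± 179, SD, n = 3), Serping1 (480 ± 67.8), C4b (125 ± 31.3), Lcn2 (56.4 ± 23.4), Slpi (38.6 ± 8.26), Fn1 (28.3 ± 10.5), Hp (4.35 ± 1.27), Cfb (2.16 ± 1.92) and Saa3 (1.77 ± 1.58). Neighbours from Lcn2 to Fn1 and from Hp to Saa3 overlapped between libraries, and the other neighbours did not. At 1 week Saa3 (604 ± 460) came after C3 (4894 ± 4277) and Serping1 (1196 ± 120), with C3 overlapping Serping1 between libraries and Saa3 below every Serping1 value. At 5 weeks Serping1 (566 and 839 in the 2 libraries) and Lcn2 (112 and 134) stood above C3 (63.6 and 64.2), and Fn1 (2.65 and 3.98) overlapped Cfb (2.89 and 4.22). This order depended on the length used, since the median transcript lengths were 608 bases for C3 and 763 for C4b while their merged exons cover 5132 and 5695 bases. With merged exon lengths, an alternative chosen after seeing the data, Serping1 (344 ± 48.5) came before C3 (95.7 ± 21.2) in wild type without overlap, and C4b (16.8 ± 4.19) came after Fn1 (27.2 ± 10.2), Lcn2 (20.2 ± 8.41) and Slpi (19.7 ± 4.21), all 4 overlapping in a chain of neighbours. At 1 week Serping1, Saa3 and C3 then overlapped (857 ± 86.2, 604 ± 460 and 580 ± 507), and at 5 weeks Serping1 and Lcn2 were still the 2 highest.

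**Figure D3:**
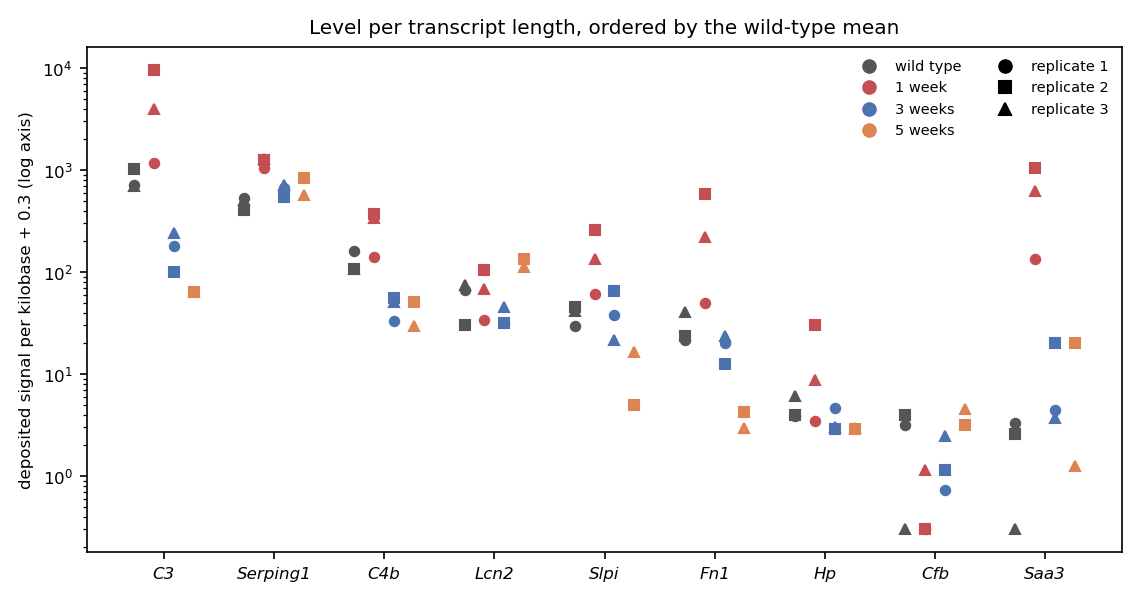
Deposited signal per kilobase of transcript (y axis, log scale, with 0.3 added) of the 9 genes, ordered from left by their wild-type mean (x axis), in every library. Colours give the group and symbols the replicate. C3 lies above Serping1 in wild type on this length, an order that turns with merged exon lengths, and Serping1 and Lcn2 lead at 5 weeks with either length.

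Other complement genes were counted in 4 lists. Of 18 genes of complement activation, 14 passed the filter, and at 1 week 1 was called higher (all genes, 1.65%) and 1 lower (2.92%). C1qb, a chain of the recognition protein C1q, rose by 1.08 ± 0.19 (adjusted p = 0.00193, under the fold threshold at 0.99 without wild-type replicate 2), with C1qa at -1.01 ± 0.36 (adjusted p = 0.0884) and C1qc at 0.67. Masp1, a protease of the lectin route, fell by 2.45 ± 0.44 (adjusted p = 0.00201). At 5 weeks 0 were higher (all genes, 4.26%) and 5 lower (11.2%) than wild type, with a median log2 fold change of -1.10 against -0.03 for all genes tested. These were Masp1 (-2.89), the C1 protease C1s (-2.74), the lectin Colec12 (-1.995, adjusted p up to 0.285 when a library was left out), C1qa (-1.90) and C1qb (-1.26). C2, the partner of C4b in the convertase, had no call (log2 fold change -0.85 at 5 weeks), nor had C1ra (-0.94), and Cfd, the protease that cleaves factor B, held at most 0.241 CPM in any library.

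Among 12 complement regulators, 1 was called higher at 1 week (Cfi, log2 fold change 1.18 ± 0.37, adjusted p = 0.0475, up to 0.179 when a library was left out) and 0 lower (all genes, 1.65% higher and 2.92% lower). At 5 weeks 1 was called higher (all genes, 4.26%) and 6 lower (11.2%), with a median of -0.999. Vtn, which encodes vitronectin, an inhibitor of the terminal complex, fell by 4.90 ± 0.44 (adjusted p = 2.18e-07), and Cd55, a membrane inhibitor of the C3 convertases, fell by 1.80 ± 0.50 (adjusted p = 0.0116, up to 0.0712 when a library was left out). From 3 to 5 weeks Cfi, a protease that inactivates the C3 and C4 cleavage products, rose by 1.81 ± 0.39 (adjusted p = 0.00462). Clu, another inhibitor of the terminal complex, fell by 1.52 ± 0.31 from wild type to 3 weeks (adjusted p = 0.00283) and was -0.49 at 5 weeks. Of 7 terminal components C7 was called lower at every time (-2.78, -2.41 and -3.26 at 1, 3 and 5 weeks, with an adjusted p of 0.0533 at 1 week and 0.0564 at 3 weeks without wild-type replicate 1), and C8b rose at 1 week by 1.05 ± 0.25 (adjusted p = 0.0121, up to 0.0582 when a library was left out). Of 9 receptors only Itgam, the integrin chain of complement receptor 3, was called against wild type, at 1 week (log2 fold change 1.84 ± 0.45, adjusted p = 0.0147, up to 0.0849 when a library was left out). The C3a receptor C3ar1 was not (0.53 at 1 week). From 1 to 3 weeks Itgam (-1.97, adjusted p = 0.0155), Itgb2 (-1.68, adjusted p = 0.0436) and C3ar1 (-1.42, adjusted p = 0.0285) were called lower.

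The other acute phase genes were called in both directions. Of 32 genes 21 passed the filter. At 1 week 2 were called higher (all genes, 1.65%), the metallothionein Mt1 (1.19 ± 0.24) and the metalloreductase Steap4 (1.42 ± 0.26), and 4 lower (2.92%). The 4 lower genes were led by Lbp (-1.52 ± 0.43), Hamp2 (-1.48 ± 0.37) and Saa4 (-1.42 ± 0.41), each of which lost its call in at least 3 of 6 fits that left out a library. At 5 weeks 5 were higher (all genes, 4.26%) and 8 lower (11.2%), with a median of -1.17. The hepcidin gene Hamp2 had 429 counts at 3 weeks and 1 at 5 weeks, a level 378-fold lower (exact 95% counting interval 67.5 to 14959), and was 44.9 to 98.7 CPM in wild type. Its paralog Hamp went from 1 count at 3 weeks to 65 at 5 weeks, 73.8-fold higher (12.8 to 2959). Itih4 fell by 5.14 ± 0.57 (adjusted p = 2.50e-06) and Crp by 4.58 ± 0.95 (adjusted p = 0.00148) from wild type to 5 weeks. Serpina3n, an acute phase serpin, was 1.12 to 2.80 CPM in wild type and 8.15 CPM in replicate 2 of 1 week, with no call against wild type at any time. It was called lower from 1 to 3 weeks (log2 fold change -2.169, adjusted p = 0.0485). The acinar share given above moves with the wild-type comparisons of these genes, and it also fell from 3 to 5 weeks. Between those times 22 of 24 acinar markers were called lower (all genes, 4.01%) and 0 higher (2.2%). The part of the acinar share in these values was not tested.

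Genes of the signalling that controls acute phase transcription were counted beside all genes tested. Of 40 tested, 0 were called higher (all genes, 1.65%) and 2 lower (2.92%) at 1 week (Il22ra1 and Ctf1). At 3 weeks against wild type 0 were called higher (all genes, 1.6%) and 3 lower (5.05%): the C/EBP factor Cebpa (-3.79), Il22ra1 (-3.76) and Ctf1 (-1.22). At 5 weeks against wild type 3 were higher (all genes, 4.26%) and 6 lower (11.2%), with a median of -0.12. The largest of these changes were Il22ra1 (-5.54), Cebpa (-3.91) and Cebpb (2.16). From 3 to 5 weeks 5 were higher (all genes, 2.2%) and 1 lower (4.01%), with a median of 0.23 beside -0.01 over all genes tested. Cebpb, a C/EBP factor, was 0.466 to 0.973 CPM at 3 weeks and 4.43 and 5.54 CPM at 5 weeks, and rose by 2.65 ± 0.48 (adjusted p = 0.00112). Socs3, the STAT3-induced inhibitor of cytokine receptors, rose by 1.87 ± 0.27 (adjusted p = 0.000143), the NF-kB cofactor Bcl3 by 1.80 ± 0.31 (adjusted p = 0.000681) and Stat3 by 1.06 ± 0.16 (adjusted p = 0.000180). Stat3 dropped under the fold threshold without 3-week replicate 1 or 5-week replicate 3. Osmr, the oncostatin M receptor chain, fell by 1.35 ± 0.23 (adjusted p = 0.000602, a call lost under endocrine scaling), and its partner Il6st rose by 0.75 (adjusted p = 0.00251), under the fold threshold. The cytokines Il6 (at most 0.926 CPM in any library) and Il1b (at most 2.35 CPM) had no call, nor had Cebpd and Nfkbiz, and the NF-kB inhibitor Nfkbia rose at 1 week by 0.98 ± 0.18 (adjusted p = 0.00252), under the fold threshold.

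Partners of the set were also described. Of 17 tested, 0 were called at 1 week in either direction (all genes, 1.65% higher and 2.92% lower). At 5 weeks 1 was higher (all genes, 4.26%) and 6 lower (11.2%) than wild type. Serpinb1a, an inhibitor of neutrophil proteases, fell by 5.24 ± 0.63 from wild type to 5 weeks (adjusted p = 7.40e-06), and Tgm2, a transglutaminase that crosslinks fibronectin, by 3.42 ± 0.41 (adjusted p = 7.34e-06). Elane, the elastase that SLPI inhibits, did not pass the filter and held at most 0.711 CPM.

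Markers of several other cell types were also higher at 1 week. Over all genes tested, 1.65% were called higher and 2.92% lower at 1 week. Alpha cell markers summed to 30376 to 66642 CPM in wild type and 179016 to 205166 CPM at 1 week, with 5 of 6 tested called higher and 0 lower, among them Gcg (2.16). Delta cell markers summed to 2672 to 5277 CPM in wild type and 8117 to 18904 CPM at 1 week, with 3 of 4 called higher and 0 lower, led by Sst (1.92). The summed level of 12 macrophage markers was 67.4 to 83.5 CPM in wild type, 115, 343 and 213 CPM in replicates 1, 2 and 3 of 1 week, 78.9 to 85.4 CPM at 3 weeks and 48.0 to 53.2 CPM at 5 weeks. The summed level of the 9 genes at 1 week was 180, 792 and 398 CPM in the same libraries, so that replicate 2 was highest for both. That library was also the highest for delta cell (18904 CPM) and mesothelial (45.8 CPM) markers. Among the 1-week libraries it was highest for the acinar share (20.8%). At 1 week 3 of the 12 were called higher and 0 lower: Lyz2 (log2 fold change 2.97 ± 0.41, adjusted p = 0.000241), Tyrobp (1.61 ± 0.25, adjusted p = 0.000853) and Cd14 (1.67 ± 0.51, adjusted p = 0.0436, up to 0.191 when a library was left out), while Csf1r (0.23), Mrc1 (-0.10), Ptprc (-0.36) and Adgre1, listed as Emr1 (0.24), were not called. The summed level of 10 neutrophil markers was 5.87, 28.2 and 14.2 CPM at 1 week and 3.98 to 8.61 CPM in wild type. S100a8 rose at 1 week by 3.79 ± 0.78 (adjusted p = 0.00596) and S100a9 by 2.65 ± 0.66 (adjusted p = 0.0166, up to 0.0828 when a library was left out), while the defining Ly6g held at most 0.374 CPM in any library. S100a8 had 0 counts at 5 weeks and 89 at 3 weeks, at least 26.1-fold lower with the 5-week group set to 3 counts in all.

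Summed fibroblast and endothelial markers were below wild type at 5 weeks, and summed mesothelial markers at 3 and 5 weeks. The summed level of 10 fibroblast markers was 210 to 342 CPM in wild type, 280 to 340 at 1 week, 210 to 225 at 3 weeks and 32.0 to 32.6 CPM at 5 weeks. At 1 week 1 of the 10 was called lower (all genes, 2.92%), Acta2 (-2.29 ± 0.34, adjusted p = 0.000552), and 0 higher (1.65%). From 3 to 5 weeks 8 of the 10 were called lower (all genes, 4.01%) and 0 higher (2.2%), led by Lum (-4.82), Acta2 (-3.87) and Dcn (-3.74). Of 8 endothelial markers, which summed to 218 to 307 CPM in wild type, 237 to 311 at 1 week, 270 to 280 at 3 weeks and 75.6 to 109 CPM at 5 weeks, 4 were called lower from 3 to 5 weeks and 0 higher. Fn1 fell between the same times. The 8 mesothelial markers summed to 25.3 to 38.2 CPM in wild type, 27.7 to 45.8 at 1 week, 9.49 to 10.1 at 3 weeks and 9.99 to 15.0 CPM at 5 weeks. C3 and C4b were below wild type at the same later times. Of the 8 mesothelial markers 0 were called higher at 1 week and 1 lower, with a median log2 fold change of 1.18. The lower marker was Krt19 (-1.56 ± 0.47, adjusted p = 0.0408, up to 0.193 when a library was left out). The hepatocyte marker Alb was at most 2.80 CPM and Apoa1 at most 0.885 CPM in any library. The part of these cell types in the values of the set was not tested.

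**Figure D4:**
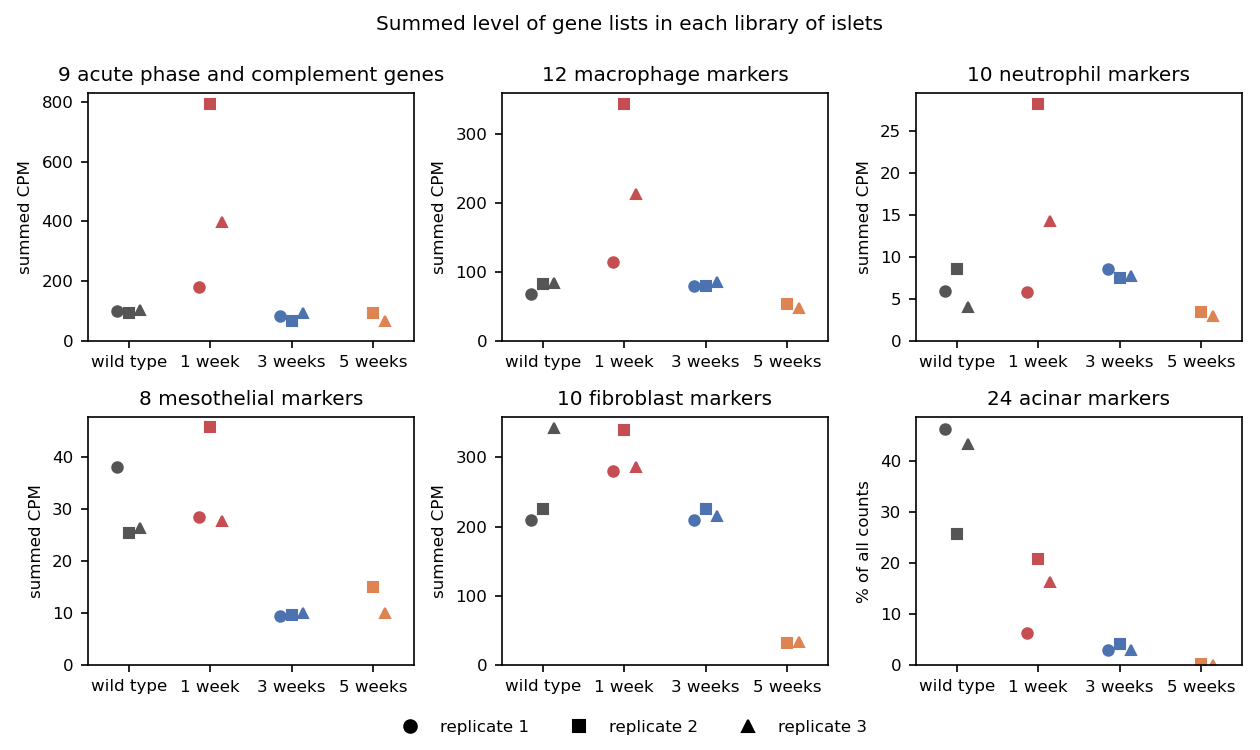
Summed CPM (y axis) of the 9 acute phase and complement genes and of 4 marker lists, and the share of all counts taken by 24 acinar markers (last panel, percent), in every library by group (x axis). Symbols give the replicate. Replicate 2 of 1 week is highest for the 9 genes (792 CPM) and for macrophage (343 CPM), neutrophil (28.2 CPM) and mesothelial (45.8 CPM) markers. Among the 1-week libraries it is also highest for fibroblast markers (340 CPM) and for the acinar share (20.8%). Fibroblast markers drop at 5 weeks, and the acinar share is lowest at 5 weeks.

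The genes most like the mean pattern of the set over the 11 libraries, by Pearson's r of log2 CPM, were Igkv15-103 (0.96), Lrrn4 (0.96), Ighv11-2 (0.95), Mon1a (0.94), Upk1b (0.94), Gpr133 (0.94), Cxcl2 (0.94), Cd14 (0.94), Cyp1b1 (0.93) and Igfbp6 (0.93). These are descriptions, because libraries of a group share condition and composition. All 10 were highest in replicate 2 of 1 week, which the ranking favours because the mean pattern of the set peaks there. The neutrophil chemokine Cxcl2 was 0.617, 5.91 and 3.22 CPM at 1 week and at most 0.271 CPM in wild type. The immunoglobulin segment Igkv15-103 was 0.123, 5.84 and 3.54 CPM at 1 week. Lrrn4 and Upk1b belong to the mesothelial list and Cd14 to the macrophage list.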

How the data were processed

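Bulk RNA-seq counts of 11 libraries were analysed. The authors amplified RNA of islets of 2 mice per library linearly, and per the labels and the study's methods reads were demultiplexed (bcl2fastq 2.17.1.14), trimmed (cutadapt 1.10), freed of ribosomal RNA (Bowtie2 2.2.8), aligned to mm9 (STAR 2.5.3a) and then assigned to Ensembl genes by HTSeq (union mode), so that reads shared by genes or copies were lost. The use of strand is not given in the sources used here. The deposited counts are raw whole numbers per gene, and the deposited signal is the authors' normalised count divided by median transcript length. The authors' columns of log2 fold changes and p-values from DESeq2, and gene lists whose identifiers do not pair with their names, were not used. Replicate 1 of 5 weeks was not analysed here.

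Sample titles gave each group and replicate number. Counts were fitted with edgeR 4.0.16 in R 4.3.3: filterByExpr kept 20180 genes and at least 99.8% of counts, TMM scaled the libraries, and 1 quasi-likelihood model over 4 groups gave each comparison. Benjamini-Hochberg adjustment covered every gene tested, and "called" means an adjusted p below 0.05 and a log2 fold change beyond 1, the thresholds of the study. SE is the log2 fold change over the square root of F. The levels in CPM use the scaled library size. Correlations used log2(CPM + 0.5). Each replicate was a pool of mice, and p-values measure the spread between these pools only. Intervals and floors (3 counts over a group) cover counting error only.

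Text names the 9 genes, a fixed set of related genes, the 3 largest called changes of each list and comparison, and the 10 most similar genes, except that some genes of the lists are counted but not reported by name here. The members and lists were chosen with earlier results of these data known. Promoters are RefSeq, GRCm38.p6, and gene positions GENCODE M1 on NCBIM37. Scripts were tested on simulated data. Alternatives were other scalings (DESeq2 1.42.0 size factors, library totals, 12 endocrine genes), no filter, the DESeq2 Wald test, the compared groups alone, a replicate block, each library left out and, added after seeing the data, merged exon lengths for the order of levels.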

Additional observations from a re-analysis of the deposited data

Results flagged for a closer look

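Results were flagged here where the change from wild type differed between the mutant at 5 weeks and at 3 weeks by the test of 5 weeks against 3 weeks itself, with an adjusted p below 0.05 and a log2 fold change beyond 1 in edgeR. Of the 9 genes, Lcn2 was flagged with a log2 fold change of 1.77 and Fn1 with -2.503. Among complement genes, Cfi was higher (1.81) and C1s (-2.17) and Vtn (-1.67) were lower at 5 weeks. Among other acute phase genes, Hamp was higher (5.72, against 1 count at 3 weeks), and Crp (-3.78) and Hamp2 (-8.10, with 1 count at 5 weeks) were lower. Among signalling genes, Cebpb (2.65), Socs3 (1.87), Bcl3 (1.80) and Stat3 (1.06) were higher and Osmr (-1.35) was lower. Among partners, Serpinb1a (-2.29) and Tgm2 (-1.26) were lower. Fits that left out a library lost the call of Lcn2 (adjusted p up to 0.0632), Fn1 (0.172), Vtn (0.128), Crp (0.0825), Serpinb1a (0.199) and Tgm2 (0.188), and Stat3 dropped under the fold threshold. Endocrine scaling lost the calls of Osmr, Vtn and Tgm2, library totals and the replicate block that of Tgm2, and the DESeq2 Wald test that of Hamp. The acinar share also fell from 3 to 5 weeks, and its part in these changes was not tested. Groups held at most 3 libraries, so that no library was tested as standing apart.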

How the results depend on the processing

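At 3 weeks against wild type, the count of genes of the set called higher went from 0 to 2 with library totals and 1 with no filter, and the count called lower from 2 to 1 with library totals and to a range of 1 to 2 when a library was left out. At 5 weeks against wild type, the count called higher went from 0 to 3 with library totals, 2 with endocrine scaling, 2 with no filter, 1 with the DESeq2 Wald test, 1 with the compared groups alone and 0 to 1 when a library was left out, and the count called lower from 4 to 2 with library totals and 2 to 4 when a library was left out. From 5 weeks against 3 weeks, the count called higher (1) was 0 to 1 when a library was left out, and the count called lower (1) was 2 with library totals, 3 with no filter, 2 with the DESeq2 Wald test, 2 with the compared groups alone and 0 to 1 when a library was left out.

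Signs turned with library totals for Lcn2 (0.096) and Fn1 (0.079) at 3 weeks against wild type, and from 3 to 5 weeks for Saa3 (0.27) and C4b (0.069). They turned with endocrine scaling for Slpi at 3 weeks (-0.082), and from 3 to 5 weeks for Saa3 (0.67) and C4b (0.49). Saa3 from 3 to 5 weeks also turned in DESeq2 (0.13) and with the compared groups alone (0.060). When a library was left out, signs turned within the ranges of Slpi at 3 weeks (-0.39 to 0.39), Saa3 at 5 weeks (-0.78 to 3.26), and, from 3 to 5 weeks, Saa3 (-3.04 to 1.23), C4b (-0.65 to 0.097) and Serping1 (-0.17 to 0.38). None of the values with a turned sign passed the test. Library totals moved the median of all genes by 0.66 at 3 weeks, 0.99 at 5 weeks and 0.33 from 3 to 5 weeks, and endocrine scaling by -0.21, 0.53 and 0.73. Calls over all genes from 3 to 5 weeks went from 443 higher and 809 lower to 1231 and 523 with library totals and 4684 and 397 with endocrine scaling. Of the counts of the pathway lists under alternatives, 851 stayed within 1.5 times and 199 did not. The cause was not tested.

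Same-numbered libraries deviated together by over 0.1 in 1 of 15 pairs (correlations -0.16 to 0.21), and the main fit did not pair samples by number. Deviations from the mean of 2 or 3 libraries oppose each other within a group, so these correlations cannot exclude a pairing. With the replicate block the calls of the set numbered 0 higher and 2 lower at 3 weeks, 0 and 4 at 5 weeks, and 1 and 1 from 3 to 5 weeks, while calls over all genes from 3 to 5 weeks were 363 higher and 665 lower. Genes under about 1 CPM (Cfb, Hp, and Saa3 outside 1 week) rest on few counts, and 5 weeks rests on 2 libraries.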
